A study of Homo sapiens with 3 samples.

Results

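Displaced RNA polymerase II (Pol II) regions are sites that 2 Pol II maps placed beside each other rather than on top of each other. They were taken from chromatin immunoprecipitation sequencing (ChIP-seq) of the human prostate carcinoma line LNCaP, which responds to androgen, grown at passages 40 to 45 and given 100 nM of the androgen dihydrotestosterone (DHT) after 3 days in hormone-depleted serum. The first group received 25 μM TBBz, a brominated benzimidazole that inhibits the protein kinase CK2, for 2.5 hours with DHT in the last 1.5 hours, and its Pol II was precipitated. The second group received DMSO, which the label also gives as 25 μM, with DHT for the same times and the same Pol II antibody. The CK2α group received DHT without vehicle or inhibitor and was precipitated for CK2α, a catalytic subunit of the kinase; its label gives 2.5 hours of DHT and its protocol 90 min. Each group is 1 library, so there is no spread between replicates, no test between treatments was possible, and an effect of TBBz cannot be told apart from any other difference between the libraries. The source label mentions TBBz for both Pol II libraries, and the treatment labels were used to tell them apart.

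A region of the DMSO list was counted as displaced when it shared no base with any TBBz region but had the centre of a TBBz region within 2000 bp. Of the 21819 DMSO regions, 2665 met this rule, which is 12.2% of the list (95% interval 11.8 to 12.7%), out of 59983 regions in the 3 lists. A further 16112 DMSO regions overlapped a TBBz region, and 3042 had no TBBz centre within 2000 bp. Each displaced region was paired with its nearest TBBz region, which gave 2571 different TBBz partners. The members were thus chosen by the positions of regions in these same TBBz and DMSO lists, and their number and their distances are a description. Intervals are exact (Clopper-Pearson) binomial intervals at 95%, and those of medians come from order statistics. Both cover counting error only, and regions of 1 library are not replicates. All positions are in hg19.

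As background, Pol II does not lie evenly along genes. After starting transcription it commonly pauses a short way into the gene before it is released to elongate, and many human promoters also start transcription in the opposite direction from a neighbouring site. A map of Pol II peaks near a gene start therefore often holds several positions close together. CK2 phosphorylates many nuclear proteins, among them factors that act with Pol II during elongation and histone H2A. Because the gene annotation at hand is of a later genome build, the distance and direction of these pairs relative to gene starts were not analysed here, no gene is named, and no region sequence is shown. Direction is given along the chromosome, relative to CK2α, and relative to other Pol II regions.

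The opening of the DMSO list, which is taken to follow peak strength, shows what such a pair looks like. The first displaced region stood at place 27 of the DMSO list. There the TBBz library had its region at chr17:7959755-7959955, against chr17:7960206-7960406 in the DMSO library, 451 bp toward lower coordinates. The places differed: this TBBz region stood at 8533 of 24782, far down its list. A CK2α region, chr17:7960291-7960491, overlapped the DMSO region of this pair and lay 536 bp from the TBBz region.

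The second pair had a TBBz region at chr1:59250019-59250219, against a DMSO region at chr1:59249567-59249767. The TBBz centre was 452 bp higher, and no CK2α region lay within 32 kb of the DMSO region, the nearest being 32629 bp away. In the third pair the TBBz region chr22:41842909-41843109 lay 259 bp above the DMSO region chr22:41842650-41842850. Here CK2α lay outside the pair on the TBBz side, 330 bp from the TBBz centre and 589 bp from the DMSO centre.

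In the pair at place 125 of the DMSO list, CK2α lay between the Pol II positions. The TBBz region was chr1:244998448-244998648 and the DMSO region chr1:244998769-244998969, with CK2α 247 bp from the TBBz centre and 74 bp from the DMSO centre. At place 133 the TBBz region chr1:45196450-45196650 and the DMSO region chr1:45196656-45196856 were 206 bp apart, and a single CK2α region, chr1:45196521-45196721, overlapped both. The TBBz region chr16:89626801-89627001 and the DMSO region chr16:89627022-89627222 were 221 bp apart and had no CK2α region within 21 kb, the nearest being 21638 bp from the DMSO centre.

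The remaining pairs of the first 10 show the same mixture. At chr1:11968521-11968721 with TBBz and chr1:11968184-11968384 with DMSO, the centres were 337 bp apart and CK2α overlapped the TBBz region. At chr1:155532470-155532670 with TBBz and chr1:155532974-155533174 with DMSO, the centres were 504 bp apart and CK2α again overlapped the TBBz region, 592 bp from the DMSO centre. At chr1:245133729-245133929 with TBBz and chr1:245134079-245134279 with DMSO, the distance was 350 bp and CK2α lay outside the pair, 478 bp from the TBBz centre. At chr12:56512107-56512307 with TBBz and chr12:56511781-56511981 with DMSO, the distance was 326 bp and CK2α coincided with the DMSO region, with centres 1 bp apart.

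Across these first 10 pairs no direction prevailed. The TBBz region was at higher coordinates in 4 and at lower coordinates in 6, and CK2α, present within 1 kb of the midpoint of 8 pairs, was nearer to the TBBz region in 5 and to the DMSO region in 3. In none of the 10 did the TBBz region overlap another DMSO region. Places ran from 78 to 8533 in the TBBz list and from 27 to 232 in the DMSO list; places in lists of different lengths show no change in signal.

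**Figure D1:**
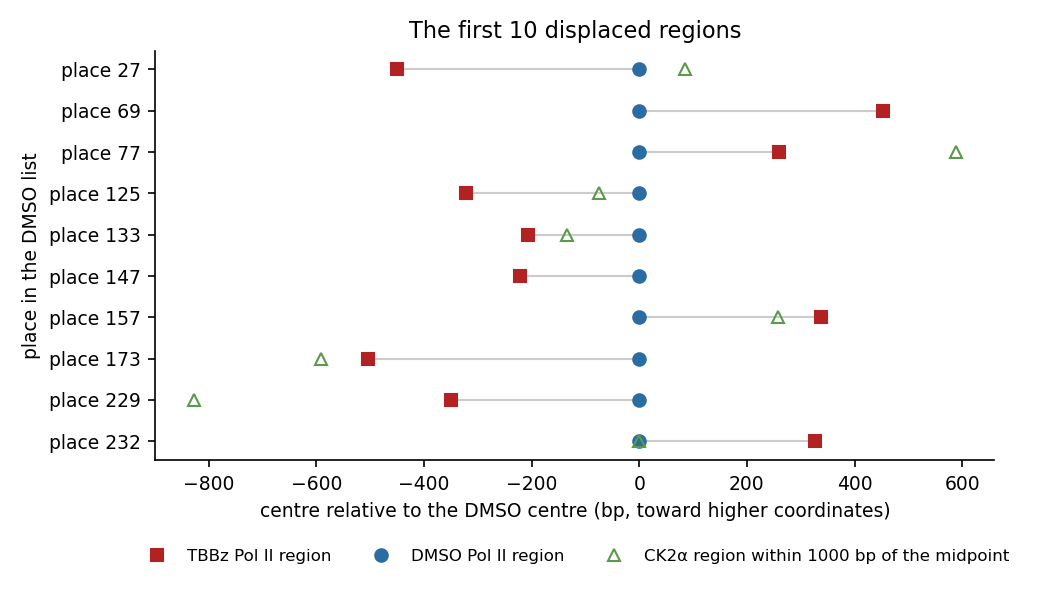
Centres of the TBBz Pol II region (squares), the DMSO Pol II region (circles, set to 0) and the nearest CK2α region within 1000 bp of the midpoint (open triangles) for the first 10 displaced regions of the DMSO list, in bp toward higher coordinates. TBBz centres lie 206 to 504 bp from the DMSO centre, 4 above and 6 below, and CK2α falls outside, on or between the positions.

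The next 5 displaced regions with a TBBz partner of their own were alike in distance, between 204 and 457 bp. At place 240, chr16:69364619-69364819 with TBBz stood against chr16:69364415-69364615 with DMSO, and CK2α overlapped the DMSO region with its centre 8 bp away. At place 253, chr8:134309673-134309873 with TBBz stood against chr8:134309358-134309558 with DMSO, again with CK2α on the DMSO region, 17 bp from its centre. At place 315, chr5:170814394-170814594 with TBBz stood against chr5:170814781-170814981 with DMSO, and here CK2α overlapped the TBBz region, 86 bp from its centre. The pair at place 257, chr1:17231152-17231352 with TBBz and chr1:17231609-17231809 with DMSO, had CK2α on neither region. The pair at place 305, chr3:128902568-128902768 with TBBz and chr3:128902878-128903078 with DMSO, had no CK2α centre within 1 kb of its midpoint.

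Most displaced regions lay only a little beyond overlap. The median distance between the TBBz and DMSO centres was 368 bp (interval 356 to 378 bp), with quartiles of 263 and 586 bp. Of the 2665 members, 1805 (67.7%, 65.9 to 69.5%) had their partner within 500 bp and 2443 (91.7%) within 1000 bp. The numbers fell from overlap outward, apart from a small rise from 507 to 542 at the limit of overlap. Over all DMSO regions the nearest TBBz centre was at most 50 bp away for 12747 regions, 51 to 100 bp for 2021, 101 to 150 bp for 837, 151 to 200 bp for 507, 201 to 250 bp for 542, 251 to 300 bp for 412 and 301 to 350 bp for 297. There was no gap at 201 bp, the width of a region, where the rule begins to count a region as displaced. For overlapping regions the median offset was 19 bp (quartiles 8 and 43 bp).

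At the edges of the rule the pairs were as follows. The smallest distance was 201 bp, as at chr6:13328816-13329016 with TBBz and chr6:13328615-13328815 with DMSO, at chr20:57226259-57226459 with TBBz and chr20:57226058-57226258 with DMSO, and at chr21:38739097-38739297 with TBBz and chr21:38739298-38739498 with DMSO. Just inside the outer limit stood chr15:64445844-64446044, chrX:149108524-149108724 and chr16:70694270-70694470 of the DMSO list, with TBBz centres 2000, 1997 and 1989 bp away. Just outside it stood chr4:190895834-190896034, chr14:37994760-37994960 and chr11:58912295-58912495, with TBBz centres 2020, 2023 and 2024 bp away. Few regions were near this limit: 75 members had a distance of 1501 to 2000 bp, and 94 DMSO regions had one of 2001 to 3000 bp.

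The members fell into 2 kinds at a distance of about 500 bp. Within 500 bp, 98.8% of the 1805 members had a TBBz partner that overlapped no DMSO region, and 97.5% (96.7 to 98.2%) were in turn the nearest DMSO region of that partner. Beyond 500 bp, 510 of the 860 members (59.3%, 55.9 to 62.6%) had a partner that overlapped another DMSO region, so the TBBz region there was a site of both lists and the member was an additional DMSO region beside it. The share with such a partner was 11.9% at 451 to 500 bp, 51.8% at 501 to 600 bp, 68.8% at 601 to 800 bp and 72.7% at 801 to 1000 bp. Per the file headers the authors' peak calling kept regions of a list at least 500 bp apart, and only 11 neighbouring regions of the TBBz list and 23 of the DMSO list were closer, the closest at 436 bp with TBBz and 404 bp with DMSO. Within about 500 bp each list could thus name 1 position, and the lists hold no tag value that would show whether Pol II was also at the other. A DMSO region that overlapped a partner nearer than this would mostly stand too close to the member to be kept. The split at about 500 bp is thus in large part set by this spacing. Displaced here describes the positions of called regions, and whether Pol II itself moved cannot be read from them.

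**Figure D2:**
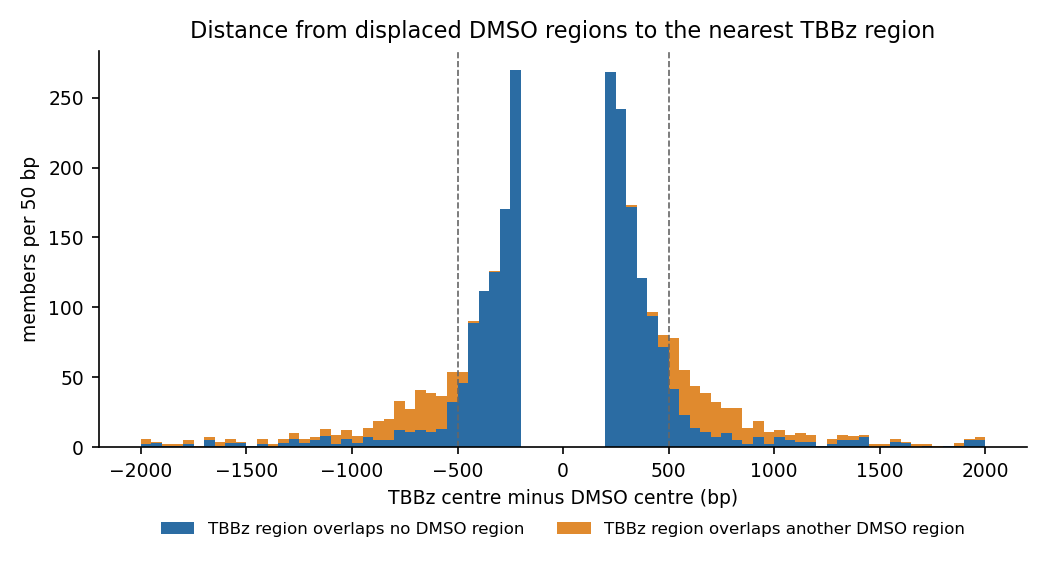
Number of displaced DMSO regions per 50 bp of distance to the nearest TBBz centre, with positive values where the TBBz centre is at higher coordinates; colours separate TBBz partners that overlap no DMSO region from those that overlap another DMSO region, and dashed lines mark 500 bp. Numbers fall steeply from 201 bp on both sides, and partners shared with another DMSO region appear almost only beyond 500 bp (510 of 532). The minimum spacing of 500 bp within a list in large part sets this.

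In all, 2044 members (76.7%, 75.0 to 78.3%) formed 1-to-1 pairs, in which each region was the nearest of the other list and neither overlapped a region of the other list. Their median distance was 311 bp (304 to 318 bp). For 532 members (20.0%, 18.5 to 21.5%) the TBBz partner overlapped another DMSO region, at a median of 721 bp (692 to 748 bp) from the member. The remaining 89 had an unshared partner that was nearer to another DMSO region. Of the partners, 88 served 2 members and 3 served more, and in 59 cases a TBBz region had 1 member on each side. Conversely, 238 members (8.93%) had TBBz centres within 2000 bp on both sides.

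The same rule with the lists exchanged found 3434 TBBz regions beside a DMSO region, 13.9% of the TBBz list (13.4 to 14.3%), against 12.2% for the members in the DMSO list. The 2 sets meet in the 1-to-1 pairs, which are 76.7% of the members and 59.5% of the exchanged set. They differ in the rest: 532 members lay beside a site that both lists hold, against 1208 (35.2%, 33.6 to 36.8%) of the exchanged set. The TBBz library was the deeper, with 22345614 tags, against 15466579 with DMSO. It also had more of its tags in regions, 12.6% against 6.79%, and 114 tags per region against 48.1 with DMSO. The part of these differences in the numbers above was not tested.

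Along the chromosome, TBBz partners were somewhat more often at higher coordinates. This was so for 1438 members (54.0%, 52.0 to 55.9%) and the partner was at lower coordinates for 1227. Among 1-to-1 pairs the share was 54.1% (51.9 to 56.2%), and in 10 equal parts of the DMSO list it lay between 48.1% and 60.6%, above 50% in 9 of 10. Higher coordinates prevailed on 17 of 24 chromosomes, but the interval excluded 50% on 1 chromosome alone, chromosome 5 with 60.7% (52.0 to 69.0%). Of the 15766 overlapping regions with unequal centres, the TBBz centre was higher in 51.5% (50.7 to 52.3%). By offset this share was 51.1% at 1 to 50 bp and 53.5% (51.3 to 55.7%) at 51 to 100 bp. At 101 to 200 bp it was 52.5% (49.8 to 55.2%). Among members the share was 50.2% at 201 to 250 bp and 58.7% at 251 to 300 bp. In the wider classes of distance it lay between 45.3% and 59.7%. The lean was thus not particular to displaced regions. The lists give every region as plus strand and so carry no strand of a gene. How the direction along the chromosome relates to gene strand was not analysed. The distance was alike on both sides, with a median of 362 bp where the TBBz region was higher and 374 bp where it was lower.

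Displaced regions were spread over the whole DMSO list and, as a share of all its regions, were least frequent at its opening. They made up 7.43% (6.36 to 8.61%) of the first 10% of the list, 15.0% (13.5 to 16.6%) of the stretch from 60 to 70% and 11.0% (9.76 to 12.4%) of the last 10%. Among regions without TBBz overlap the order was the reverse. The first 10% held 162 members and 4 regions with no TBBz centre within 2000 bp, and the last 10% held 241 and 1162. Members were 46.7% (45.4 to 48.0%) of the 5707 DMSO regions without TBBz overlap. Their median place was at 53.6% of the list, against 41.6% for overlapping DMSO regions and 86.7% for those with no TBBz centre within 2000 bp. Distances grew along the list, with medians of 309 bp in the first 10% and 526 bp in the last 10%, and the share of members beside a site of both lists was 4.94% in the first 10% and 30.3% in the last. Members beside a site of both lists had a median place at 68.8% of the list, and those with an unshared partner at 48.8%.

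The places of the paired regions followed each other. Over the 2133 pairs with an unshared TBBz partner the place with TBBz and the place with DMSO gave a Spearman's rho of 0.889, close to the 0.895 of the 16112 overlapping regions, and over the 532 pairs with a shared partner it was 0.696. These coefficients describe regions of single libraries that share depth and local background. The pair at place 27, whose TBBz region stood at place 8533, is an example away from this order.

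**Figure D3:**
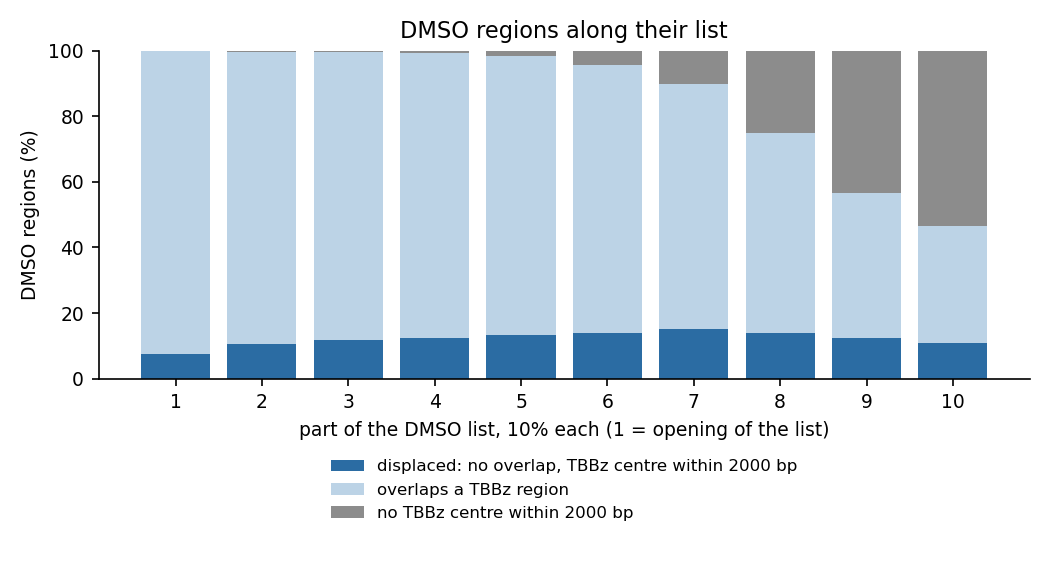
Share of DMSO regions that were displaced, overlapped a TBBz region or had no TBBz centre within 2000 bp, in 10 equal parts of the DMSO list from its opening (1) to its end (10). Displaced regions keep between 7.43% and 15.0% of each part, while regions with no TBBz centre nearby grow to 53.3% in the last.

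The CK2α list took no part in choosing the members. Its library had 1.65% of its tags in regions and 23.5 tags per region, both below the values of the Pol II libraries. Of its candidates 76.2% were removed for not standing above their surroundings. A Pol II region without CK2α is therefore one without a called CK2α region, and weaker CK2α signal there cannot be read from the list. Of the displaced regions 21.6% (20.0 to 23.2%) overlapped a CK2α region, against 24.9% (24.2 to 25.5%) of the DMSO regions that overlapped a TBBz region, 11.5% (10.4 to 12.7%) of those with no TBBz centre within 2000 bp and 22.6% of all DMSO regions. A CK2α centre lay within 1 kb of 53.1% (51.2 to 55.0%) of the displaced regions, against 52.0% (51.2 to 52.8%) of the overlapping ones, 18.6% of those without a TBBz centre nearby and 47.5% of all DMSO regions. For CK2α overlap the interval of displaced regions did not meet that of overlapping regions, lay below it and included the share of all DMSO regions, while for a CK2α centre within 1 kb the intervals of displaced and overlapping regions met. CK2α overlap fell along the list for members as for overlapping regions, and place moves with it: it was 32.1% for members and 33.2% for overlapping regions in the first 10% of the list, 24.9% for members and 31.2% for overlapping regions from 20 to 30%, and 11.2% for members and 8.60% for overlapping regions in the last 10%. Members had the higher share in 5 of 10 equal parts of the list, and the intervals of members and overlapping regions met in each. Regions with no TBBz centre nearby stood mostly late in the list, and set beside members of the same part their share was not lower throughout. From 50 to 60% of the list CK2α overlap was 22.4% for members and 34.8% for the 92 such regions, and from 60 to 70% it was 22.9% for members and 22.9% for the 223 such regions. It was 15.7% for members and 14.5% for such regions from 70 to 80%, 12.2% for members and 8.23% for such regions from 80 to 90%, and 11.2% for members and 7.23% for such regions in the last 10%. Earlier parts held at most 33 of them each.

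Of the TBBz partners 20.3% (18.8 to 21.8%) overlapped CK2α, against 21.6% of the displaced DMSO regions paired with them and 19.4% of all TBBz regions. A CK2α centre lay within 1 kb of 53.9% (52.0 to 55.8%) of the partners, against 42.2% of all TBBz regions. It was 52.1% (51.3 to 52.8%) for TBBz regions that overlapped a DMSO region, an interval that meets that of the partners. For TBBz regions with no DMSO centre within 2000 bp it was 6.86%. CK2α lay on both regions in 125 pairs (4.69%), on the TBBz region alone in 415 (15.6%, 14.2 to 17.0%), on the DMSO region alone in 450 (16.9%, 15.5 to 18.4%) and on neither in 1675 (62.9%). The shares for the TBBz and the DMSO region have intervals that meet, but they are parts of the same pairs and were not tested against each other. Of the 125 pairs with CK2α on both, 75 had a single CK2α region that reached both. An example is the pair chr1:11969596-11969796 with TBBz and chr1:11969805-11970005 with DMSO, 209 bp apart, where CK2α at chr1:11969622-11969822 lay between the centres, 26 bp from the TBBz centre and 183 bp from the DMSO centre. In another pair with CK2α between, chr3:49044462-49044662 with TBBz and chr3:49044761-49044961 with DMSO, CK2α overlapped the DMSO region alone.

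**Figure D4:**
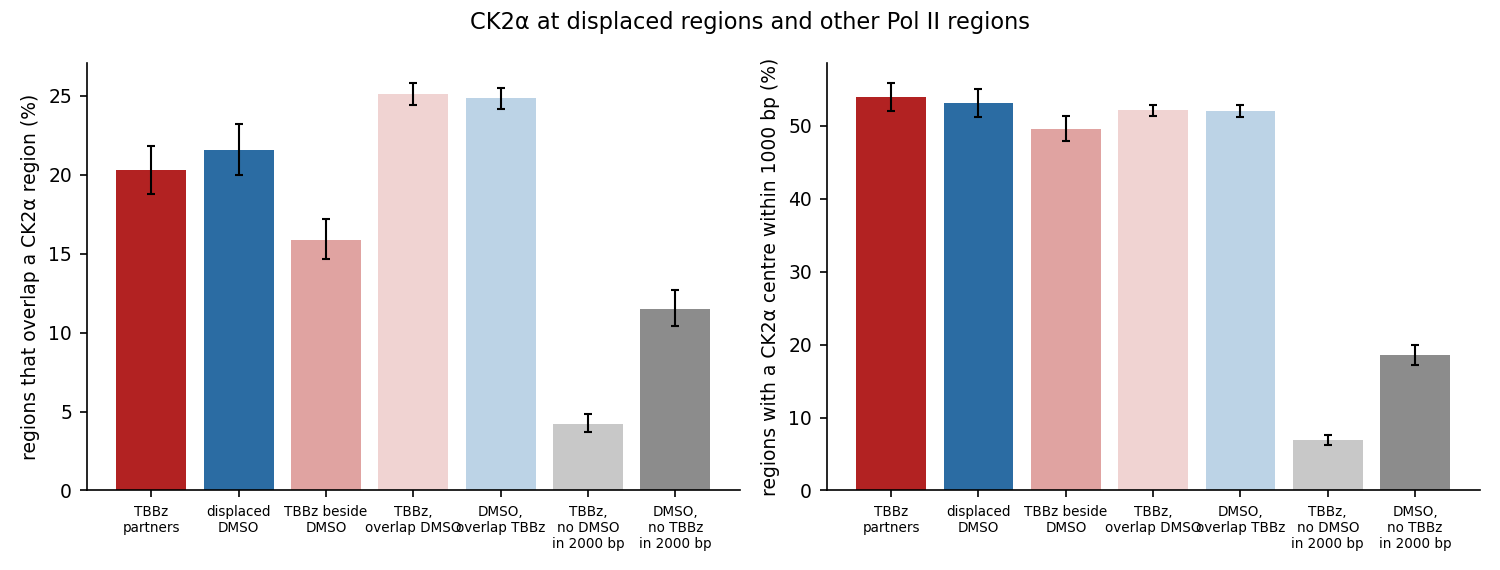
Share of regions that overlap a CK2α region (left) or have a CK2α centre within 1000 bp (right) for TBBz partners, displaced DMSO regions and other classes of Pol II regions, with exact 95% intervals that cover counting error only. For overlap, TBBz partners (20.3%) and displaced regions (21.6%) stand near the shares of all TBBz (19.4%) and all DMSO (22.6%) regions, below the regions that overlap between the lists (25.1% with TBBz and 24.9% with DMSO) and above those with no region of the other list within 2000 bp.

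Whether the TBBz position lay toward or away from CK2α was read from the 1464 pairs with a CK2α centre within 1 kb of their midpoint. The TBBz region was the nearer to CK2α in 784 of them (53.6%, 51.0 to 56.1%). Among the 1107 such 1-to-1 pairs it was the nearer in 575 (51.9%, 49.0 to 54.9%), an interval that includes 50%, and among the 302 whose TBBz region was a site of both lists in 182 (60.3%, 54.5 to 65.8%). The exchanged set gave the same kind of excess for the site of both lists, there a DMSO region, which was nearer to CK2α than the TBBz region beside it in 468 of 665 pairs (70.4%, 66.7 to 73.8%). For displaced regions beside a shared site, the shared site was thus the nearer to CK2α in most pairs, whichever library held the additional region.

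The 1-to-1 pairs were then divided by where CK2α stood. CK2α lay outside the pair on the TBBz side in 453 (40.9%, 38.0 to 43.9%), outside on the DMSO side in 350 (31.6%, 28.9 to 34.4%) and between the centres in 304 (27.5%). Of the 803 with CK2α outside, 56.4% (52.9 to 59.9%) had it on the TBBz side. Of the 304 with CK2α between, 122 (40.1%, 34.6 to 45.9%) had it nearer to the TBBz centre and 182 nearer to the DMSO centre. These divisions lean in opposite directions, and together give the 51.9% above. The share outside on the TBBz side was 58.0% (52.1 to 63.7%) in the first 25% of the DMSO list, 61.6% (55.9 to 67.1%) from 25 to 50%, 46.4% (37.9 to 55.1%) from 50 to 75% and 45% (32.1 to 58.4%) in the last 25%, so it was above 50% in the upper parts of the list and below 50% in the lower ones. The intervals of the parts from 25 to 50% and from 50 to 75% do not meet, and no test of this difference was made. By distance the share outside on the TBBz side was 55.9% at 201 to 250 bp, 54.6% at 251 to 300 bp, 57.7% at 301 to 400 bp, 58.9% at 401 to 500 bp and 52.8% beyond. It was 53.4% (48.6 to 58.1%) where the TBBz region was at higher coordinates. Where the TBBz region was at lower coordinates it was 60.1% (54.9 to 65.2%), and these 2 intervals meet. The division was made after the data were seen.

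**Figure D5:**
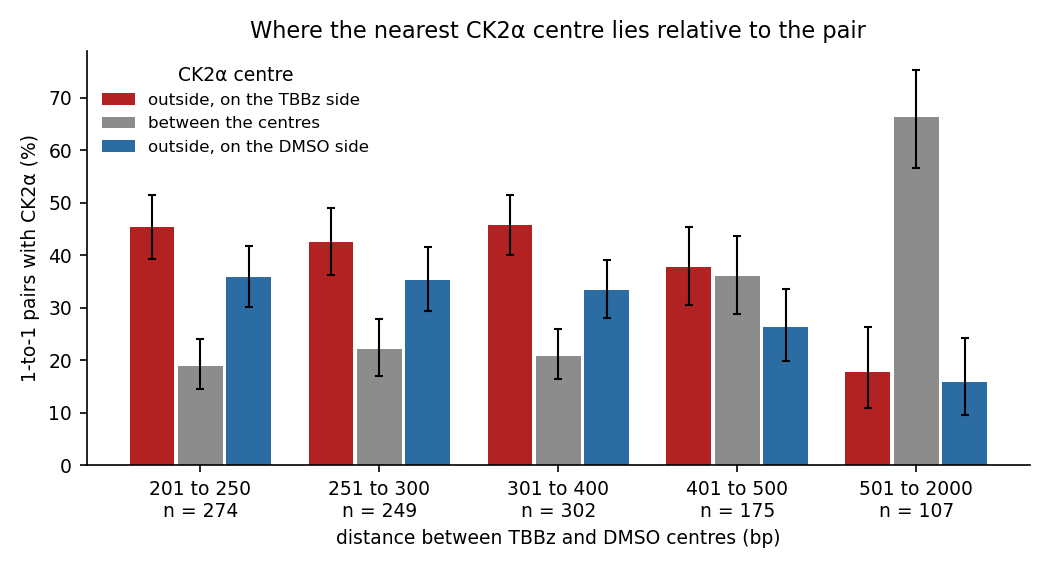
Position of the nearest CK2α centre relative to 1-to-1 pairs of TBBz and DMSO Pol II regions, as a share of pairs with CK2α within 1000 bp of the midpoint, by distance between the Pol II centres, with exact 95% intervals that cover counting error only. Up to 500 bp the TBBz side holds more CK2α centres than the DMSO side (45.3%, against 35.8%, at 201 to 250 bp), with intervals that do not meet at 301 to 400 bp (45.7%, against 33.4%) and that overlap in the other classes, and the space between holds 66.4% beyond 500 bp, where it is also the widest.

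Relative to other Pol II sites no direction prevailed beyond counting error among the displaced regions. A further DMSO region that overlapped a TBBz region stood within 10 kb of 665 pairs (25.0%), and the TBBz region was the nearer to it in 337 and the DMSO region in 328, so that 50.7% (46.8 to 54.5%) of the TBBz positions lay toward it. For pairs with an unshared TBBz region the share was 49.9% (45.6 to 54.2%) of 547. In the exchanged set the DMSO region was the nearer to a further shared site in 478 of 894 pairs (53.5%, 50.1 to 56.8%). That share was 56.4% (50.8 to 61.9%) of 319 where the DMSO region was itself a shared site. Where it was unshared the share was 51.8% (47.7 to 56.0%) of 575.

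Displaced regions occurred on all 24 chromosomes. Their share of the DMSO regions was 15.4% (13.5 to 17.5%) on chromosome 2 and 14.5% (12.2 to 17.1%) on chromosome 4, against 10.8% (9.31 to 12.5%) on chromosome 19 and 9.33% (3.84 to 18.3%) on chromosome Y, where there were 7. Chromosome 2 was the only chromosome whose interval did not include the 12.2% of the whole list. Of the 100 kb windows that held any member, 1967 held 1, 278 held 2, 39 held 3, 5 held 4 and 1 held 5. Such a count was not made for all DMSO regions, so whether members stood together more or less often than those was not tested.

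The windows with the most members were chosen after their values were seen. The window chr14:37900001-38000000 had 5 members among 4 TBBz and 7 DMSO regions. In it the TBBz region chr14:37905790-37905990 had a DMSO region on each side, at chr14:37904392-37904592 and chr14:37906720-37906920, and the TBBz region chr14:37986592-37986792 likewise lay between chr14:37986226-37986426 and chr14:37987712-37987912 of the DMSO list. The same arrangement was seen at 2 places on chromosome 8, where the TBBz regions chr8:23448466-23448666 and chr8:23471910-23472110 each had 1 member on each side. In the window chr1:84600001-84700000, with 9 TBBz and 9 DMSO regions and 0 CK2α regions, the 4 members all had their TBBz partner at higher coordinates, by 303, 1009, 230 and 697 bp. In the other windows with 4 or 5 members both directions occurred, with 3 partners higher and 2 lower in the chromosome 14 window, 3 higher and 1 lower in chr10:80200001-80300000, 2 higher and 2 lower in chr20:29600001-29700000, 2 higher and 2 lower in chr8:23400001-23500000, and 1 higher and 3 lower in chr17:38200001-38300000.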

How the data were processed

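Pol II was measured in 1 library per treatment and CK2α in 1 further library, without replicates. The members, measures and lists were chosen with earlier results of these data known. The submitters' processing notes give Bowtie, HOMER and the build hg19 without versions. Peaks of each library were called alone by the authors, per the file headers, in the factor style of HOMER (size 200 bp, minimum distance 500 bp, fragment length 150 bp, false discovery rate 0.001), with no control library in the command. Per the file headers, candidates not standing 4-fold above the surrounding 10000 bp were removed. These were 35.3% with TBBz, 53.7% with DMSO and 76.2% with CK2α, so a missing Pol II region can also lie within broad Pol II signal. Tags numbered 22345614 (TBBz), 15466579 (DMSO) and 19021404 (CK2α), with tag thresholds of 13, 11 and 12.

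The deposited columns hold region starts and ends, other values being a score that, per the deposited lists, is 1 for every region. The width was 201 bp for all but 2 regions, which were of the TBBz list. Starts were raised by 1 for printing. Overlap meant at least 1 bp. CK2α was taken within 1 kb of the midpoint of a pair. The order of a list was taken to follow strength, which no value here tests. Regions named are the first 10 members of the DMSO list, the next 5 with an unshared partner, the first 5 with CK2α between, and 3 at each edge of the rule; other regions were chosen after their values were seen. The scripts were tested on simulated data in which regions stood over 10000 bp apart and each had at most 1 shifted copy. Shared partners, pairs that were not 1-to-1 and CK2α between the centres did not arise there, so their handling was not tested. Computation used SciPy 1.17.1, pandas 2.3.3 and NumPy 2.4.6 under Python 3.11.15, with plots by Matplotlib 3.10.9.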

Additional observations from a re-analysis of the deposited data

How the results depend on the processing

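The share of TBBz regions nearer to another shared site, 50.7% as reported, lay on the other side of 50% with partners within 500 bp (49.6%, 44.8 to 54.3%); the intervals of both include 50%. None of the alternatives run brought the direction along the chromosome or the CK2α sides to the other side of 50%, and 64 of 95 values stayed within the counting interval of the reported value or, for numbers of regions, within 1.5 times. They did not include the later parts of the DMSO list alone, where outside CK2α was on the TBBz side in 46.4% (50 to 75%) and 45% (last 25%). They also left out long distances alone. Among pairs with an unshared partner, the TBBz region was nearer to CK2α in 53.2% (50.1 to 56.3%) of 1013 within 500 bp. Beyond 500 bp it was nearer in 42.3% (34.2 to 50.6%) of 149. In the exchanged set, which shares the 1-to-1 pairs, the DMSO region was nearer in 46.8% (43.6 to 49.9%) of 1016 within 500 bp. Beyond 500 bp the DMSO region was nearer in 63.7% (56.5 to 70.5%) of 193, an interval that excludes 50%. The direction along the chromosome stayed at 52.8 to 54.5%, with an interval that included 50% in the first 50% of each list (52.8%, 49.9 to 55.7%), and the share nearer to CK2α at 51.0 to 55.4%, though the interval of the share nearer to CK2α included 50% in several settings. With partners within 500 bp, the median distance was 293 bp, partners shared with another DMSO region 1.22%, reciprocal pairs 97.5%, median place 43.5% and the exchanged set 1812. Within 1000 bp these were 344 bp, 17.5%, 80.2% and 50.8%, and within 5000 bp 391 bp, 22.5%, 73.1% and 55.8%. Where sharing needed 50% of the shorter region, 4009 regions were displaced, at a median of 263 bp, with 11.9% shared partners, 84.5% reciprocal pairs and a median place of 55.8%. With the TBBz list shortened to the number of DMSO regions, shared partners were 22.1%, reciprocal pairs 74.6% and the median place 51.7%. In the first 50% of each list there were 1179 members and 1857 of the exchanged set, with a median of 318 bp, 12.6% shared partners, 86.5% reciprocal pairs, 26.5% on CK2α and 60.5% of outside CK2α on the TBBz side. CK2α centres within 500 bp were found for 39.9% of members. In 1-to-1 pairs alone, chosen as a setting after the data were seen, the median distance was 311 bp and the median place 47.4%. Wider or narrower distance and overlap rules, and shorter lists, change which regions are counted by construction; other causes were not tested. The CK2α sides of the outside pairs and the direction to other shared sites were also added after the data were seen. Alternatives that need a gene annotation of hg19 were not run. No paired analysis was possible because there is 1 library per group. Depth limits which weak regions either list holds, and tags were not subsampled.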
